A study of Mus musculus with 6 samples.

Results

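Collagens are the main structural proteins of the extracellular matrix, and each is built from 3 alpha chains wound into a triple helix. Fibrillar collagens form the tensile fibers of the stroma, collagen IV forms the sheet-like network of basement membranes, and the remaining types anchor, link or decorate these structures or span the cell membrane. In a salivary gland the basement membrane surrounds acini, ducts and myoepithelial cells (MECs), and the fibrillar network lies in the septa and around vessels, where fibroblasts are the main source. The genes described here are the rows of the authors' filtered count table named Col, a number, a and a number, which gave 38 of 17527 rows. They comprised 6 fibrillar genes (Col1a1, Col1a2, Col3a1, Col5a1, Col5a2 and Col5a3), 8 basement membrane genes (Col4a1 to Col4a6, Col15a1 and Col18a1) and 24 others. A row was in the filtered table exactly when some library had over 5 counts of it. The member nearest to that limit was Col6a4, whose highest count was 6, in WT 4, so that it passed through a single WT library, and the nearest gene outside it was Col24a1, whose highest count was 5.

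RNA of whole submandibular glands from female mice was sequenced, with 3 wild type (WT) and 3 double knockout (DKO) libraries, numbered 1, 4 and 5 in each group. DKO mice lack Hs3st3a1 and Hs3st3b1, which encode enzymes that add 3-O-sulfate groups to heparan sulfate, through a frameshift deletion in exon 1 of Hs3st3a1 made on a chromosome that already carried a LacZ knockout allele of Hs3st3b1. The mice were adults on a C57BL/6 background and the WT mice were littermates. Their exact age and the founder line behind these glands were not given in the sources used here, and both alleles are constitutive, so that every cell type of the gland carried them. Total counts ranged from 23674258 to 29611975 per library. Hs3st3a1 had 11 to 15 counts in the WT libraries and 8 to 13 in the DKO libraries, and Hs3st3b1 had 173 to 261 and 120 to 255. In these counts the targeted transcripts therefore did not separate the groups, which are named by their labels throughout. By qPCR the authors reported no expression of either gene in adult DKO glands, and why these counts differ was not tested. The libraries WT 5 and DKO 1 stood apart in Muc19, a mucin gene of the neighbouring sublingual gland, with 55665 and 3706 normalized counts against 28.2 to 119 in the other 4. Galnt12, another gene listed as a sublingual marker, did not set them apart, with 112 and 104 against 35.2 to 130. Fold changes are DKO over WT on the log2 scale, and normalized counts are counts divided by the DESeq2 size factor of the library.

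Collagen transcripts made up a small share of the RNA, 0.0978% ± 0.0208 of all counts in WT and 0.0671% ± 0.0144 in DKO (SD, n = 3 each). The groups overlapped, with DKO 1 (0.0822%) above WT 4 (0.0752%). Such shares are scaled by total counts, which moved the median fold change of all genes to -0.23. In normalized counts the members summed to 24061 ± 4296 in WT and 19383 ± 2728 in DKO, also with overlap (log2 ratio -0.31). To compare genes with each other, normalized counts were divided by the length of the longest protein-coding transcript. On this per-kilobase scale the highest WT means were those of Col3a1 (595), Col1a2 (426), Col4a1 (376), Col7a1 (272), Col15a1 (252), Col1a1 (219.9), Col11a1 (212) and Col4a2 (203). Col3a1, Col1a2 and Col1a1 encode chains of stromal fibrils, Col4a1 and Col4a2 the ubiquitous chains of the basement membrane network, and Col7a1 the anchoring fibril that ties an epithelium to its stroma. Col3a1 ranged from 466 to 726 per kilobase in WT and Col1a2 from 336 to 545, and these ranges overlapped, as did those of the other neighbours in this order except Col4a1 (346 to 399) and Col7a1 (230 to 310). At the other end Col4a3, Col8a1, Col8a2, Col28a1, Col26a1, Col9a2, Col25a1 and Col6a4 had fewer than 10 normalized counts per kilobase in WT. The plot of levels by library shows all members with a mean of at least 50 normalized counts, which were 30 of the 38.

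**Figure D1:**
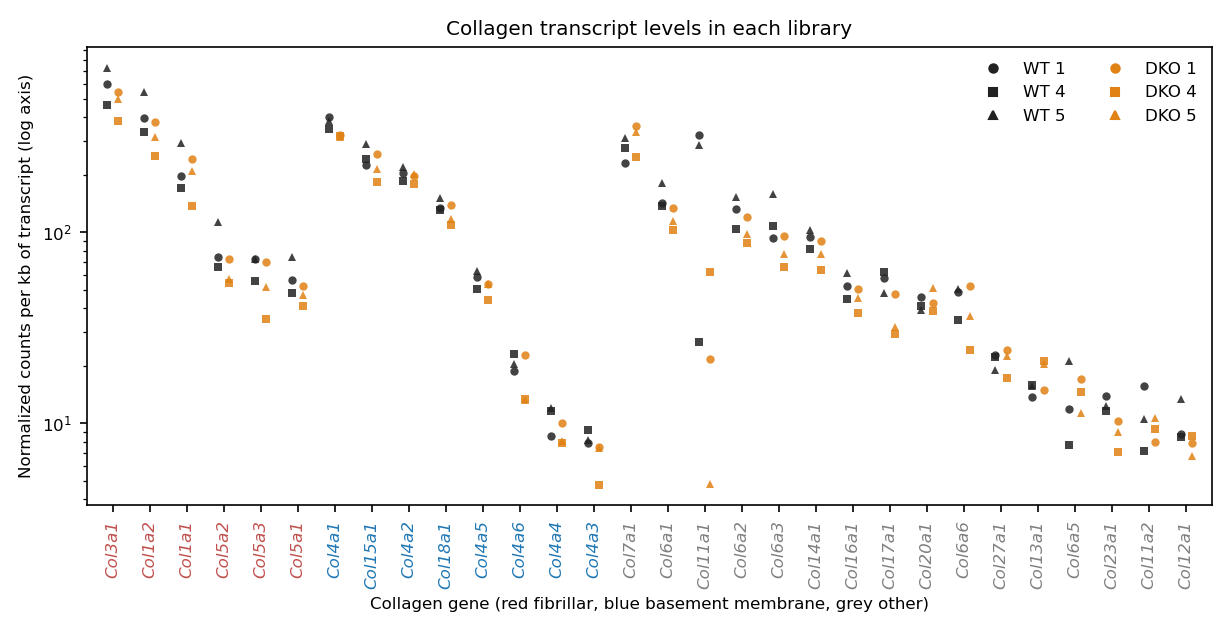
Normalized counts per kilobase of transcript (log axis) for the 30 collagen genes with a mean of at least 50 normalized counts, ordered by level within the fibrillar (red), basement membrane (blue) and other (grey) classes. Each point is 1 library, black for WT and orange for DKO, with the library number given by the marker shape, and Col11a1 spreads far more than any other gene shown.

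No collagen gene passed the threshold between the genotypes. In the DESeq2 fit over 18606 genes, 0 of the 38 collagen genes had an adjusted p-value under 0.05, where 2.18% of genes with an adjusted p-value were called lower and 1.18% higher in DKO. At an unadjusted p under 0.05, 9 collagen genes were lower (background 7.27%) and 0 were higher (background 4.93%). These were Col1a2, Col3a1, Col5a2, Col4a1, Col6a1, Col6a2, Col6a3, Col11a1 and Col17a1. With the same cut-off edgeR gave 7 lower collagen genes (background 8.67%) and limma-voom gave 6 (background 7.93%). After adjustment 0 passed with either tool, where edgeR called 10 and limma-voom 7 genes in the whole table. The smallest adjusted p-values under DESeq2 were those of Col6a3 (0.0593) and Col17a1 (0.0640). Col6a4 received no adjusted p-value because of its low mean.

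The fold changes of the collagen genes lay mostly below 0. A negative value was fitted for 33 of the 38, where 9272 of all 18606 genes tested had one. It was fitted for 26 of the 30 with a mean of at least 50 normalized counts, where the background share was 45.2%. The median over all 38 was -0.32, against 0.00 for all genes tested. Over the 30 it was -0.29, against 0.03 for all genes with that mean. By class the median was -0.35 for the fibrillar genes (from -0.46 to -0.16), -0.23 for the basement membrane genes (from -0.36 to -0.08) and -0.31 for the others. Every DKO library lay below every WT library in 5 of the 30 genes (Col4a1, Col4a3, Col6a1, Col17a1 and Col23a1), against a background of 10.4%, and every DKO library lay above every WT library in 0 of the 30, against 12.8%. The plot of fold changes gives all 30 with their standard errors.

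**Figure D2:**
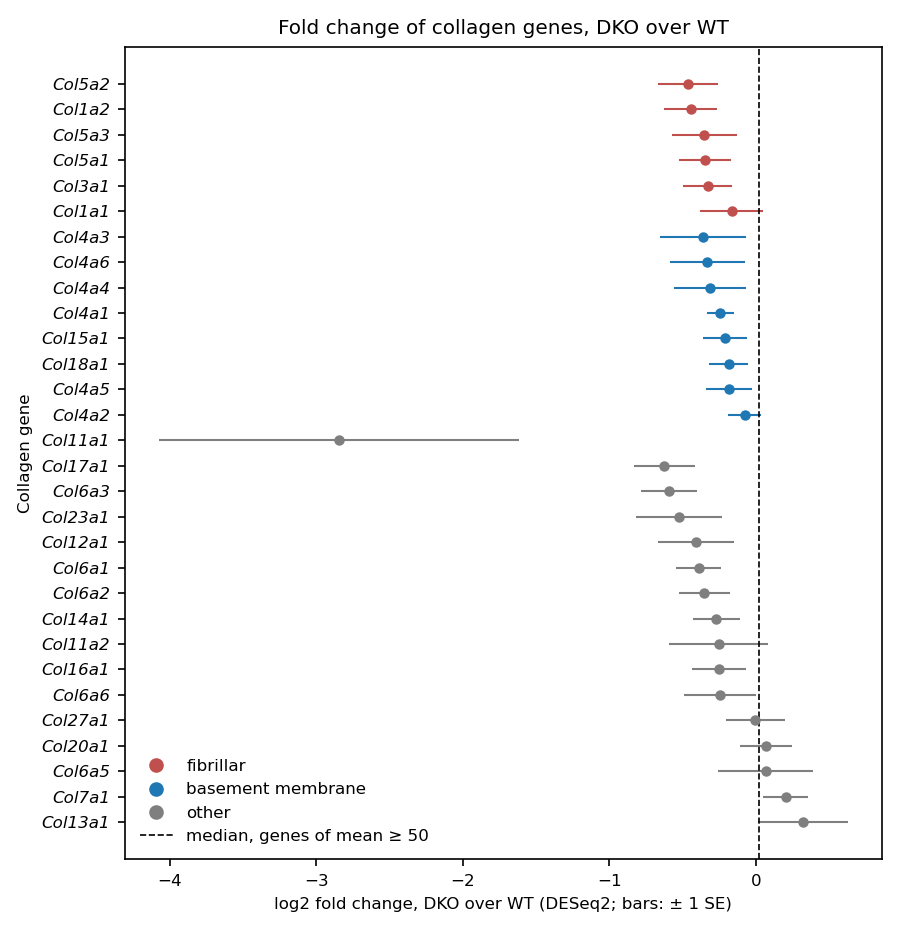
DESeq2 log2 fold change, DKO over WT, with bars of ± 1 SE, for the 30 collagen genes with a mean of at least 50 normalized counts. Fibrillar genes are red, basement membrane genes blue and others grey, the dashed line is the median of all genes with a mean of at least 50 (0.03), and 26 of the 30 points lie below 0.

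The classes depended on single libraries in size but not in direction. Within WT, library 5 had the highest value in all 6 fibrillar genes, and within DKO library 1 did so, and these are the libraries with most Muc19. Over all 38 collagen genes WT 5 was the highest WT library in 23 and DKO 1 the highest DKO library in 27. Without WT 5 the medians were -0.18 (fibrillar), -0.17 (basement membrane) and -0.18 (other). Without DKO 4 they were -0.23, -0.14 and -0.28, and without DKO 1 they were -0.51, -0.32 and -0.42. With WT 5 and DKO 1 both left out they were -0.30, -0.23 and -0.22, and Col17a1 passed the threshold. The part of the Muc19 difference in these values was not tested.

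**Figure D3:**
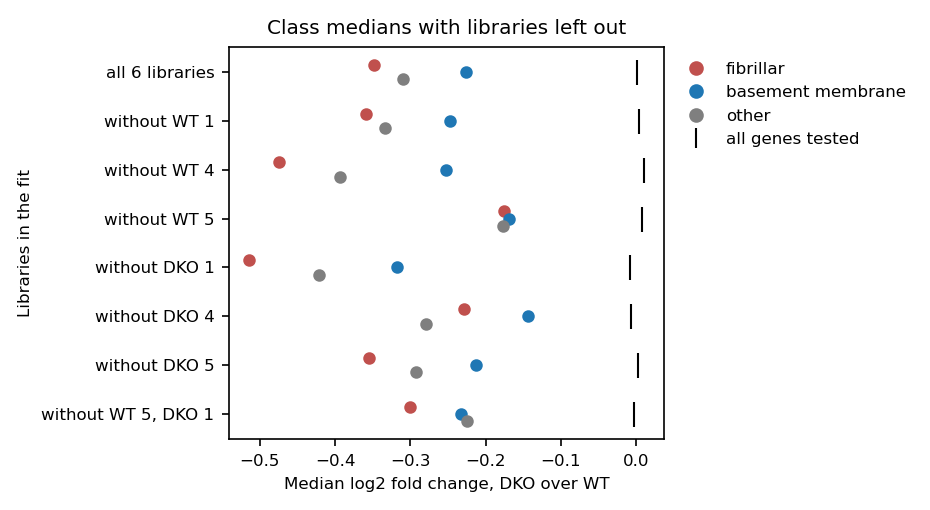
Median log2 fold change, DKO over WT, of the fibrillar (red), basement membrane (blue) and other (grey) collagen genes, and of all genes tested (black bar), in the DESeq2 fit of all 6 libraries and in fits with libraries left out. The class medians range from -0.51 to -0.14 and stay below the median of all genes in each fit.

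Summed per library, the fibrillar genes had 8009.7, 6580.3 and 10502 normalized counts in WT 1, 4 and 5 against 7814, 5186 and 6798 in DKO 1, 4 and 5. The log2 ratio of the group means was -0.34 and the groups overlapped, since DKO 1 and DKO 5 lay above WT 4. The basement membrane genes summed to 6533, 6133 and 7049.7 in WT against 6178, 5314 and 5731 in DKO (log2 ratio -0.20), where DKO 1 lay above WT 4. The other genes without Col11a1 summed to 6873, 6935 and 8699.5 in WT and 7893, 5625 and 6932 in DKO (log2 ratio -0.14), again with overlap, and with Col11a1 the ratio was -0.37. The fibrillar sum over the basement membrane sum was 1.26 ± 0.211 in WT and 1.14 ± 0.149 in DKO (SD, n = 3), which overlapped. Of these sums only that of Col6a1, Col6a2 and Col6a3 was without overlap, as the plot of summed levels shows, and with the other collagen VI genes added the groups overlapped. The separation was narrow, with 2129.5 in WT 4 and 2072 in DKO 1. The sum of these 3 genes was added to the planned class sums. Single genes with a mean of at least 50 were separate in this direction in 10.4% of cases.

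**Figure D4:**
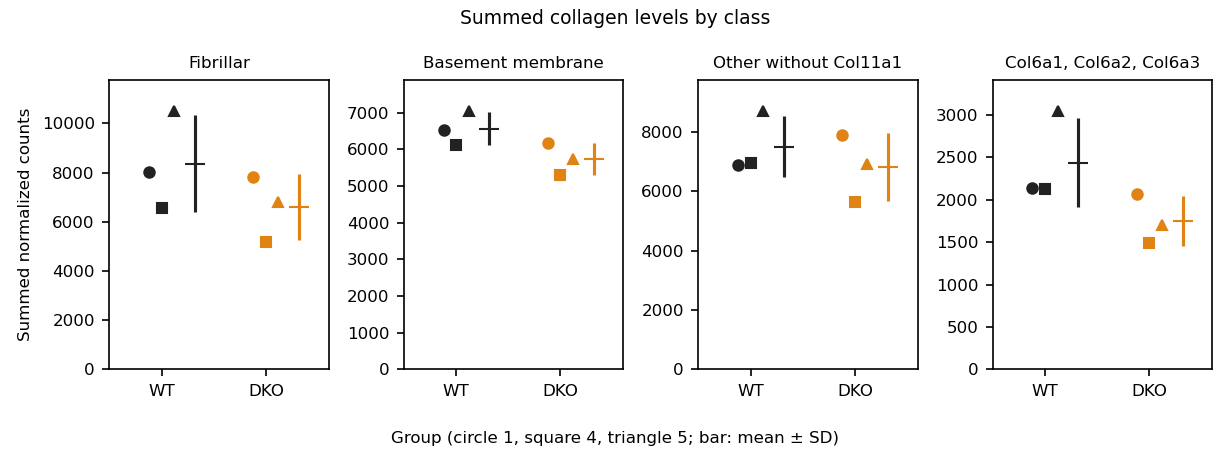
Summed normalized counts (axis from 0) of fibrillar genes, basement membrane genes, other genes without Col11a1, and the 3 main collagen VI genes in each library. Points are WT (black) and DKO (orange) libraries 1 (circle), 4 (square) and 5 (triangle), bars are mean ± SD (n = 3), and the groups overlap in every panel but that of collagen VI.

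Several collagen genes lie side by side in the genome, and their upstream sequence is shown for the genes on which the account turns. Col3a1 (chromosome 1, 45311538 to 45349706, plus strand, GRCm38) and Col5a2 (45374321 to 45503282, minus strand) are 24614 bp apart. Col4a4 and Col4a3 point away from each other with 71 bp between their starts, Col4a6 and Col4a5 do the same on chromosome X with 1308 bp between them, and the first exons of Col4a1 and Col4a2 overlap by 22 bp on chromosome 8. Col6a1 and Col6a2 lie 85161 bp apart on chromosome 10, and Col6a4, Col6a5 and Col6a6 together on chromosome 9. RefSeq starts (GRCm38.p6) were matched for 31 of the 38 genes, with 33 starts in all, and the 250 bases before each were searched. The motif GGGCGG, a GC box, was found on either strand in 66.7% of these and in 32.7% of all 32851 starts in the table. CCAAT was found in 36.4% against 33.9%, and TATAAA in 12.1% against 12.4%. Shown here are the 250 bases before the start of Col3a1, the most abundant fibrillar gene, and of Col11a1, the most variable gene, and the whole stretch shared by Col4a4 and Col4a3, which is read on the minus strand. Capitals mark any of these 3 motifs, read on either strand, so that the motif CCAAT on the opposite strand appears as its reverse complement. No match says only that these letters are not in the stretch.
Col3a1 (chr1:45311288-45311537, plus strand): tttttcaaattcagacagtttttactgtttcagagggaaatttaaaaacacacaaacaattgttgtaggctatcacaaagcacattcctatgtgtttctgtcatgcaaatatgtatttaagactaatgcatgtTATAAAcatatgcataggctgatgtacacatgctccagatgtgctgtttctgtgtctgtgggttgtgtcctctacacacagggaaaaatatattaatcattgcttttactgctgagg
Col11a1 (chr3:114030290-114030539, plus strand): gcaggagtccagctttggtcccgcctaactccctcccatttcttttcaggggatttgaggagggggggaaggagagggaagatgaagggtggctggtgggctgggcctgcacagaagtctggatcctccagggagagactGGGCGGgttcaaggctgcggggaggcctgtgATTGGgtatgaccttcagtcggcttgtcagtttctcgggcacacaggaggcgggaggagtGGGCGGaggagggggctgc
Col4a4 and Col4a3 (chr1:82586850-82586920, minus strand): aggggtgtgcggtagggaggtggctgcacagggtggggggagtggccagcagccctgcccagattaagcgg
The stretch before Col3a1 holds 1 TATAAA and no GC box, and that before Col11a1 holds 2 GC boxes and 1 CCAAT on the opposite strand. The stretch between Col4a4 and Col4a3 holds 0 of the 3 motifs.

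Among the fibrillar genes, all 6 had lower means in DKO, and in each gene the groups overlapped. Col3a1, the chain of collagen III in pliable tissue, had 3304, 2595 and 4038 normalized counts in WT 1, 4 and 5 against 3016, 2119 and 2784 in DKO 1, 4 and 5. DKO 1 and DKO 5 were above WT 4, and DESeq2 fitted a fold change of -0.33 (SE 0.17, adjusted p = 0.362). Col1a2, the second chain of collagen I, had 2129, 1796 and 2914 in WT and 2009.5, 1333 and 1687 in DKO, with only DKO 1 above a WT library (fold change -0.44, SE 0.18, DESeq2 adjusted p = 0.188). Col1a1, the chain present in duplicate in collagen I (chromosome 11, 94936224 to 94953042), had 1169.7, 1010.5 and 1732 in WT and 1439, 814 and 1238 in DKO. The libraries DKO 1 and DKO 5 each exceeded 2 WT libraries, and the fold change of -0.16 (SE 0.21, DESeq2 adjusted p = 0.860) turned to 0.10 without WT 5 and 0.04 without DKO 4.

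Collagen V nucleates fibrils and sets their width. Col5a2 had 494, 434 and 747 normalized counts in WT against 479, 359.6 and 378 in DKO (fold change -0.46, SE 0.20, DESeq2 adjusted p = 0.242). Col5a1 had 472, 406 and 624 against 441, 347 and 393 (fold change -0.35, DESeq2 adjusted p = 0.368), and Col5a3, a rarer chain of the same collagen, had 441, 338 and 445 against 429, 214 and 317 (fold change -0.35, DESeq2 adjusted p = 0.552). In each of the 3 genes only DKO 1 lay above a WT library, WT 4.

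Several ratios between chains were taken, and only that of collagen I was without overlap between the groups. Per kilobase, Col1a1 over Col1a2 was 0.496, 0.507 and 0.536 in WT 1, 4 and 5 and 0.646, 0.551 and 0.662 in DKO 1, 4 and 5. The DKO ratios all lay above the WT ratios, a log2 difference of 0.27 between the means, and this ratio was looked at without a test. Even for separate groups, a two-sided exact test of 3 against 3 values cannot go below p = 0.1. Among single genes with a mean of at least 50, 10.4% were separate with DKO below and 12.8% with DKO above. The other ratios taken between chains overlapped between the groups. They were Col5a1 over Col5a2, Col3a1 over Col1a1, Col3a1 over Col5a2 and Col4a1 over Col4a2. Also taken were Col4a3 over Col4a4, Col4a5 over Col4a6, Col6a1 over Col6a2 and Col6a3 over Col6a1. Among these, Col5a1 over Col5a2 was 0.716 ± 0.0505 in WT and 0.769 ± 0.0473 in DKO, and Col3a1 over Col1a1 was 2.74 ± 0.263 and 2.47 ± 0.277 (SD, n = 3).

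All 8 basement membrane genes had negative fold changes. Col4a1 (chromosome 8, 11198423 to 11312826, minus strand) had 2640.2, 2291 and 2538 normalized counts in WT against 2129, 2099 and 2093 in DKO. Every DKO library lay below every WT library and the DKO values were close together (SD 19.5), with a fold change of -0.24 (SE 0.09, DESeq2 adjusted p = 0.152). It passed the threshold without WT 4 (DESeq2 adjusted p = 0.0437), and in the other 5 fits with 1 library left out the DESeq2 adjusted p ranged from 0.175 to 0.623. Col4a2, which joins the product of Col4a1 in the same trimer, had 1319, 1190.5 and 1424 in WT and 1278, 1158 and 1296 in DKO, overlapping throughout (fold change -0.08, SE 0.11, DESeq2 adjusted p = 0.876). Col4a1 over Col4a2 per kilobase was 1.86 ± 0.108 in WT and 1.66 ± 0.0999 in DKO (SD, n = 3), with DKO 4 above WT 5. The libraries were unstranded, so reads in the 22 bp shared by both genes could not be assigned.

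The restricted collagen IV chains were less abundant. Col4a5 and Col4a6 form a network of epithelial and smooth muscle basement membranes. Col4a5 had 383, 328 and 411 normalized counts in WT against 349, 288 and 350.5 in DKO (fold change -0.18, DESeq2 adjusted p = 0.712), and Col4a6 had 125, 153 and 136 against 151, 88.8 and 87.6 (fold change -0.33, DESeq2 adjusted p = 0.666). DKO 1 lay above a WT library in both. Col4a3 and Col4a4, known from the filtration barrier of the kidney, share the stretch printed above. Col4a3 had 67.3, 79.2 and 69.9 in WT and 64.5, 40.8 and 63.4 in DKO, with the groups separate (fold change -0.36, DESeq2 adjusted p = 0.698). Its counts may include reads of the opposite-strand transcript C430014B12Rik, which shares 563 exonic bp and had 21 counts in all libraries together. Col4a4 had 87.1, 117 and 122 in WT and 102, 79.4 and 81.9 in DKO, where DKO 1 lay above WT 1 (fold change -0.31, DESeq2 adjusted p = 0.680).

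Collagens XV and XVIII carry glycosaminoglycan chains and line basement membranes, XVIII with heparan sulfate, the sugar that the deleted enzymes modify. Col15a1 had 1159.8, 1245 and 1506 normalized counts in WT against 1327, 946 and 1107 in DKO (fold change -0.21, SE 0.15, DESeq2 adjusted p = 0.614). Col18a1 had 752, 729.7 and 842 against 778, 614 and 653 (fold change -0.18, SE 0.13, DESeq2 adjusted p = 0.622). In both genes DKO 1 lay above 2 WT libraries.

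Among the other collagens, the 3 main chains of collagen VI, a beaded filament around cells, had lower values in DKO. Col6a3 (chromosome 1, 90765923 to 90843971, minus strand) had 940.1, 1083 and 1599.6 normalized counts in WT against 962, 663 and 778 in DKO. DKO 1 lay just above WT 1, with a fold change of -0.59 (SE 0.19, DESeq2 adjusted p = 0.0593). Col6a1 had 584, 565 and 738 against 551, 420.2 and 468, without overlap (fold change -0.39, SE 0.16, DESeq2 adjusted p = 0.166), and Col6a2 had 618, 481 and 710.3 against 559, 407 and 453, with DKO 1 above WT 4 (fold change -0.35, SE 0.17, DESeq2 adjusted p = 0.345). The 3 genes together summed to 2142, 2129.5 and 3048 in WT and 2072, 1489 and 1699.5 in DKO, so that all DKO libraries lay below all WT libraries with a log2 ratio of -0.48. With Col6a4, Col6a5 and Col6a6 added the sums were 2684, 2510.0 and 3685 against 2692, 1835 and 2123, and the groups overlapped, since DKO 1 lay above WT 1 and WT 4. Col6a3 passed the threshold in 2 of the 6 fits with 1 library left out, without WT 1 (DESeq2 adjusted p = 0.0436) and without DKO 1 (0.0254). Without WT 5 its fold change was -0.33 (DESeq2 adjusted p = 0.638). Col6a6, an alternative to the third chain, had 428, 303 and 441 against 461, 211 and 318 and overlapped (fold change -0.24, DESeq2 adjusted p = 0.788). Col6a5 had a fold change of 0.07, and Col6a4 had at most 6 counts in any library.

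Col17a1, the transmembrane collagen of hemidesmosomes in basal epithelial cells (chromosome 19, 47646344 to 47692094, minus strand), had 321, 346 and 268 normalized counts in WT against 264, 164 and 178 in DKO. The groups did not overlap, although DKO 1 came close to WT 5. DESeq2 fitted a fold change of -0.62 (SE 0.21, adjusted p = 0.0640), and without DKO 1 it passed the threshold (DESeq2 adjusted p = 0.0012). In the other 5 fits with 1 library left out the DESeq2 adjusted p ranged from 0.153 to 0.397. Col23a1, also transmembrane, had a fold change of -0.52 without overlap (71.2 ± 6.42 against 49.4 ± 9.15, SD, n = 3, DESeq2 adjusted p = 0.436). Col13a1, a transmembrane collagen of neuromuscular junctions and other adhesion sites, had the highest fold change of all 38 members, 0.32 (SE 0.30, DESeq2 adjusted p = 0.757).

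Col7a1, the anchoring fibril collagen, was the most abundant of the other genes and did not share the negative sign. It had 2127, 2554 and 2868 normalized counts in WT against 3313, 2295 and 3091 in DKO, where DKO 1 and DKO 5 exceeded all WT libraries and DKO 4 lay below 2 of them. DESeq2 fitted a fold change of 0.20 (SE 0.15, adjusted p = 0.644), and -0.02 with total counts as size factors, a scaling that moved the median of all genes to -0.23. Col8a1, a short-chain network collagen of vessels, had 74.3 normalized counts in WT 5 and 23.8 to 33.3 in the other 5 libraries.

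FACIT collagens sit on the surface of fibrils. Col14a1, the most abundant of them, had 612, 524 and 662 normalized counts in WT against 583, 411 and 498 in DKO, with DKO 1 above WT 4 (fold change -0.27, SE 0.16, DESeq2 adjusted p = 0.487). Col16a1 followed with 271, 234 and 319.8 against 261, 196 and 236 (fold change -0.25, DESeq2 adjusted p = 0.639). Over the 6 FACIT genes fold changes ran from -0.66 to 0.07, and 4 were negative. Col9a3 shares 234 exonic bp with Tcfl5 on the opposite strand. Of the remaining group, Col26a1 and Col28a1 had means of 10.4 and 17.7 normalized counts and fold changes of -0.44 and -0.24, and the sign of Col28a1 turned positive (0.14) without WT 5.

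Col11a1, a chain of collagen XI that is best known from cartilage fibrils, had the widest range of the collagen genes with counts in every library (chromosome 3, 114030540 to 114220718, plus strand). It had 2474, 204 and 2189 normalized counts in WT 1, 4 and 5 against 167, 475 and 36.9 in DKO 1, 4 and 5, a 67.1-fold range between the highest and the lowest library. WT 1 and WT 5 were high, while WT 4 lay below DKO 4, and the fold change of -2.84 had an SE of 1.23 (DESeq2 adjusted p = 0.228). Of the 6 cartilage and bone markers, the matrix genes Acan and Ibsp had 0 counts and Matn1 had 1 over all libraries, while the transcription factors Sox9 (937 ± 53.7 normalized counts in WT and 924 ± 79.2 in DKO) and Runx2 (923 ± 87.2 and 817 ± 196) and the bone gene Bglap (16.0 ± 2.70 and 24.7 ± 7.78, SD, n = 3) were detected. Col2a1, the partner chain in cartilage, had 2 counts. Col11a2, the second chain, had 95.0, 43.0 and 63.6 normalized counts in WT against 48.4 to 64.6 in DKO. Col27a1, a related fibril-forming collagen, was level between the groups (162 ± 15.5 in WT and 162 ± 27.4 in DKO, SD, n = 3).

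Other transcripts were high in the same libraries as Col11a1, and they were chosen for display after their values were seen. Tll1, a protease of the BMP1 family that removes the C-propeptides of procollagens, had 1889, 211 and 1208 normalized counts in WT against 222, 417 and 161 in DKO. Smgc, a secretory gene of the submandibular gland, had 292310, 24599 and 186100 in WT and 36565, 117660 and 18428 in DKO. For all 3 genes WT 1 was highest, WT 5 next, DKO 4 the third and DKO 5 lowest. Muc19 did not share this order, as the plot of Col11a1 beside the other transcripts shows. Smgc shares its locus and 95 exonic bp with Muc19, so part of its counts in WT 5 may not be its own.

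**Figure D5:**
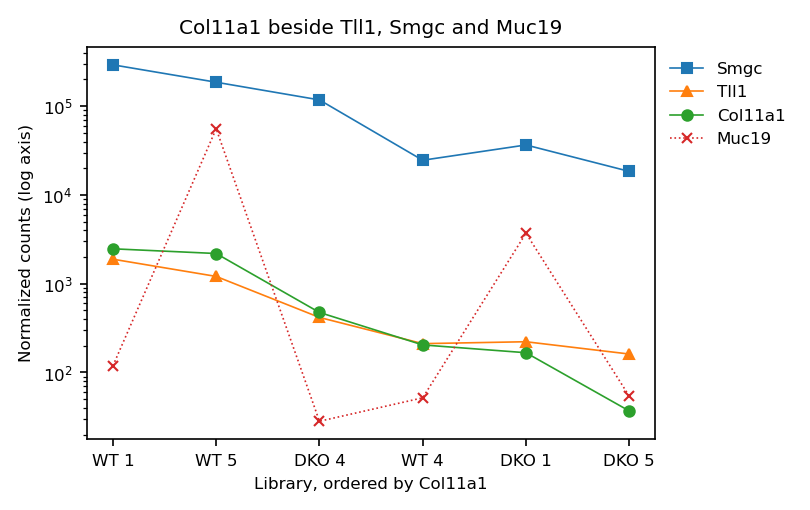
Normalized counts (log axis) of Col11a1, Tll1, Smgc and Muc19 in the 6 libraries, ordered from the highest to the lowest Col11a1. Col11a1 falls from 2474 in WT 1 to 36.9 in DKO 5, Tll1 and Smgc are high in the same 3 libraries, and Muc19 is high in WT 5 and DKO 1.

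Genes that process, bind or decorate collagen were counted next, and the 4 that passed the threshold were lower in DKO. Of 50 such genes tested, 4 were called lower and 0 higher under DESeq2, where the background was 2.18% lower and 1.18% higher. At an unadjusted p under 0.05, 17 were lower and 1 higher, against 7.27% and 4.93% of all genes. The median fold change over the 50 was -0.35. Among 15 genes of hydroxylation and glycosylation 0 passed, and P4hb, the shared subunit of prolyl hydroxylase and a general disulfide isomerase, came nearest with a fold change of 0.34 (SE 0.11, DESeq2 adjusted p = 0.0553). Of 7 folding and export genes 0 passed, with Serpinh1, the collagen chaperone HSP47, at -0.32 (DESeq2 adjusted p = 0.298). None of 8 propeptide cleavage genes passed, the nearest being Adamts3, an N-propeptidase, at -1.27 (SE 0.52, DESeq2 adjusted p = 0.186). Adamts3 had 76.2, 21.5 and 48.4 normalized counts in WT 1, 4 and 5 against 21.8, 28.2 and 10.4 in DKO 1, 4 and 5. In this gene WT 4 lay below DKO 1 and DKO 4. None of 5 cross-linking oxidases passed, the nearest being Loxl1 at -0.97 (SE 0.32, DESeq2 adjusted p = 0.0626).

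The called genes were Lair1, an inhibitory collagen receptor of leukocytes and 1 of 9 receptor genes tested, and Dcn, Bgn and Ogn, 3 of the 6 small leucine-rich proteoglycans that bind fibrils. Lair1 had 159, 115 and 128 normalized counts in WT against 82.5, 56.4 and 53.0 in DKO (fold change -1.06, SE 0.26, DESeq2 adjusted p = 0.00506). Dcn, decorin, had 4232, 4075 and 4730 against 3835, 2978 and 2610 (fold change -0.47, DESeq2 adjusted p = 0.0305). Bgn, biglycan, had 942, 769 and 1351 against 742, 576 and 541 (fold change -0.72, DESeq2 adjusted p = 0.0141), and Ogn, osteoglycin, had a fold change of -0.84 (DESeq2 adjusted p = 0.0050). In each of the 4 genes the groups were separate, against a background of 10.4% of genes with a mean of at least 50. These 4 were picked by calls from the same libraries, so their separation adds nothing to the calls. All 6 proteoglycan genes had an unadjusted p under 0.05 with DESeq2, edgeR and limma-voom, and DESeq2 fold changes from -0.84 to -0.47. Of the 4 calls 0 held under edgeR or limma-voom, which called 10 and 7 genes in the whole table. Without WT 1, WT 5, DKO 4 or DKO 5, 0 of the 50 genes passed, where 151, 149, 170 and 166 of all genes did. Without WT 4 there were 8, and without DKO 1 there were 9, where 817 and 740 of all genes passed.

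Part of the marker genes of fibroblasts and MECs, which make collagens, also passed the threshold, against the background of 2.18% lower and 1.18% higher given above. Over 8 fibroblast markers the summed level was 11933 to 15124 normalized counts in WT against 7809 to 11442 in DKO, and 5 of the 8 were called lower (Pdgfra, Dpep1, Pi16, Gsn and Dcn, the last also in the proteoglycan list). Over 10 MEC markers it was 11775 to 12673 in WT and 6537 to 8559 in DKO, and 8 of the 10 were called lower. Over 6 macrophage markers it was 1631 to 2674 and 1131 to 1579, with 4 called lower. In these 3 lists 0 genes were called under edgeR or limma-voom, which called 10 and 7 genes in the whole table. At an unadjusted p under 0.05, edgeR gave 7 lower fibroblast, 9 lower MEC and 5 lower macrophage markers (background 8.67%). With limma-voom these were 6, 9 and 5 (background 7.93%). With 1 library left out, DESeq2 called 0 to 6 of the fibroblast, 7 to 9 of the MEC and 0 to 5 of the macrophage markers, with 0 fibroblast calls without WT 1, WT 5, DKO 4 or DKO 5. Clec3b (fold change 0.02) among the fibroblast and Krt5 (-0.01) among the MEC markers were level. The 8 endothelial markers summed to 1832 to 2225 in WT and 2172 to 2753 in DKO, with 8 positive fold changes and 0 called (4 had an unadjusted p under 0.05, 5 under edgeR and 4 under limma-voom). The 6 pericyte and 6 Schwann cell markers had 0 called and 0 with an unadjusted p under 0.05 under DESeq2, edgeR or limma-voom.

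Of the other lists, 3 of 6 T cell and 1 of 5 B and plasma cell markers were called lower (background 2.18%), all at means under 50 normalized counts. With 1 library left out, DESeq2 called 1 to 5 T cell and 0 to 3 B and plasma cell markers. Without WT 1, Cd8a was the only one of these called. Of 6 genes listed as acinar markers Aqp5 and Agt were called higher (background 1.18%). Prol1, Bhlha15 and Lpo had positive fold changes and were not called. Smgc went the other way, with a fold change of -1.54 (SE 1.02, DESeq2 adjusted p = 0.571). Of the T cell, B cell and acinar calls, that of Agt alone held under edgeR and limma-voom. The lists of fat cell, skeletal muscle, cartilage and bone, and sublingual markers held 0 called genes and 0 with an unadjusted p under 0.05 under DESeq2, edgeR or limma-voom, except that DESeq2 gave Muc19 no p-value, so that of the sublingual genes only Galnt12 could be called by it. The fat cell genes Adipoq, Plin1, Lep, Cidec and Retn had at most 8 counts over all libraries, the skeletal muscle genes Myh4 and Actn3 had 0, and the sublingual genes Tff2 and Muc5b had 0. The part of any of these cell types in the collagen values was not tested, and in RNA of a whole gland fewer cells of a type and less RNA per cell cannot be told apart.

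Scaling by total counts instead of size factors changed the calls most. With it 9 collagen genes passed the threshold, all lower (Col1a2, Col3a1, Col5a1, Col5a2, Col4a1, Col6a1, Col6a2, Col6a3 and Col17a1), where 9.42% of all genes with an adjusted p-value were called lower. The calls over all genes were then 1410 lower and 62 higher, against 350 and 189 with size factors. The median of all genes stood at -0.23 in that fit and the class medians at -0.58 (fibrillar), -0.46 (basement membrane) and -0.55 (other).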

How the data were processed

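Submandibular gland RNA from 3 WT and 3 DKO female mice was prepared by the authors as unstranded Nextera XT libraries and sequenced on a HiSeq2500. The submitters' processing notes name STAR 2.5.2a, DESeq2, edgeR and limma and the builds GRCh38, GRCm38 and mm10, without their roles. The counter and its annotation were not given in the sources used here. Deposited were raw counts made by the authors for each gene symbol, unfiltered (43280 rows) and filtered (17527 rows, identical counts), and a normalized signal in which each deposited count was divided by 1 constant per library. That signal was only compared with the counts. Labels name each library as a separate sample, so p-values measure the spread between these samples.

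The unfiltered counts were tested with DESeq2 1.42.0 in R 4.3.3 (median-of-ratios size factors, from 0.867 to 1.12, two-sided Wald test, unshrunken fold changes, at least 10 summed counts, independent filtering at 0.1, Benjamini-Hochberg adjustment over all genes, threshold 0.05). Of 18606 rows, 2556 received no adjusted p-value. With 3 against 3, an exact test of a single value cannot go below p = 0.1, so only models across all genes were used. The procedure was tested on simulated data. The alternatives were edgeR 4.0.16, limma-voom (limma 3.58.1), other scalings and filters, a replicate block and libraries left out. Leaving out WT 5 and DKO 1 together was added after seeing the data.

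The members and all gene lists were chosen with earlier results of these data known. Values in each library are given for fibrillar and basement membrane genes and for others whose mean reached 300 normalized counts, otherwise for up to 2 genes per structural group with the highest mean. Of the processing, receptor and proteoglycan genes, those called are named, or the one with the smallest adjusted p. Other genes and chain ratios were picked after their values were seen. Coordinates and transcript lengths come from GENCODE M21 (GRCm38), matched by symbol, and upstream sequences from RefSeq (GRCm38.p6). The list of granular duct markers is not reported here.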

Additional observations from a re-analysis of the deposited data

How the results depend on the processing

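For 28 collagen genes, 16 alternatives gave 448 fold changes, of which 422 kept their sign and side of the threshold, 14 newly passed it with the same sign and 12 changed sign. Collagen genes called numbered 9 with total counts as size factors, 1 (Col17a1) without both WT 5 and DKO 1, and 0 to 2 without 1 library. Genes called over the whole table numbered 10 with edgeR, 7 with limma-voom, 1472 with total counts, 183 without both WT 5 and DKO 1, and 149 (without WT 5) to 817 (without WT 4) with 1 library left out. Processing, receptor and proteoglycan genes called numbered 0 with edgeR, 0 with limma-voom, 12 with total counts and 0 to 9 with 1 library left out. Total counts also moved the basement membrane median to -0.46, its summed ratio to -0.43 and the median of the other genes to -0.55, against -0.23 for all genes, by the scaling itself.

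Signs changed for Col7a1 (-0.016 with total counts), Col27a1 (0.0021 with edgeR and 0.0021 with TMM size factors), and, without both WT 5 and DKO 1, Col8a1 (0.049) and Col28a1 (0.055). With 1 library left out, fold changes ranged from -0.34 to 0.10 (Col1a1), -0.87 to 0.050 (Col8a1), -0.45 to 0.14 (Col28a1) and -0.10 to 0.13 (Col27a1). Apart from the scaling, the cause was not tested.

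With the replicate number as a replicate block, 343 genes and 0 collagen genes were called. Same-numbered libraries did not deviate together (r = -0.133, -0.0244 and -0.259 across 11489 genes), so the numbers were not treated as pairs. Some differently numbered libraries did, with r = 0.446 for WT 5 with DKO 1 and 0.444 for WT 4 with DKO 5. The lowest value was -0.39, for WT 4 with DKO 1. What these libraries shared was not tested. Members with means near 10 normalized counts had SEs of 0.67 to 0.92, and differences in them were hardly detectable at this depth.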

Other observations

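Outside the filtered table, 6 further collagen symbols were present in the unfiltered counts at very low levels. Summed over the 6 libraries, Col24a1 had 15 counts, Col22a1 had 4, Col19a1 had 3, Col2a1 had 2, Col10a1 had 1 and Col9a1 had 0, where a count of 0 allows up to 3 (counting error only). Col24a1 had 5, 1 and 0 counts in WT 1, 4 and 5 and 3, 4 and 2 in DKO 1, 4 and 5. A difference between the groups in these genes was not detectable at this depth.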
